A study of Homo sapiens with 6 samples.

Results

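The genes of the red cell membrane and its skeleton were followed by ribosome profiling in K562, a human cell line from a chronic myelogenous leukemia that keeps part of the erythroid program. The set was chosen by name as the rows of the footprint table for GYPB, GYPC, GYPE, SPTB, ANK1, EPB41, EPB42 and SLC4A1, which gave 8 of 19330 listed transcripts. Ribosome profiling (Ribo-Seq) counts the mRNA fragments that ribosomes protect from nuclease, so a count on a coding sequence (CDS) measures ribosome occupancy. All cells carried a pLentiCRISPRv2 vector with Cas9, were selected with puromycin for 48 h and were analysed 10 days after infection. In 3 libraries the guide targeted N6AMT1 (sgN6AMT1), and in 3 control libraries (sgCtrl) the guides targeted the olfactory receptor genes labelled OR11A1 and OR2M49. The cells were used as selected pools, the study describes its replicates as separate infections, and the guide carried by each sgCtrl library is not stated in the labels.

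In the red cell, spectrin tetramers form a mesh under the bilayer that gives the cell its elasticity. The mesh is held at ankyrin complexes, in which ankyrin ties spectrin to the anion exchanger band 3, and at junctional complexes, in which the EPB41 protein and glycophorin C anchor the spectrin-actin nodes. Inherited defects of these proteins cause spherocytosis and elliptocytosis. N6AMT1 is a methyltransferase whose substrates include eRF1, the release factor that reads stop codons.

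Library totals ran from 1821356 to 2969736 counts. Pairs of libraries within a group were closer to each other than pairs across groups, with a chi-square per degree of freedom of 1.25 to 1.68 and 4.89 to 7.04. N6AMT1 itself was covered by 25, 24 and 34 footprints in the controls against 10, 9 and 8 after its targeting, so the targeted gene followed the labels. The erythroid markers HBG1, HBG2, HBE1, HBZ, GATA1, KLF1, TAL1, LMO2 and TFRC all passed the count filter. HBG1 had 17586 to 27524 counts per library, although reads can be split between it and its near copy HBG2. The markers of other cell types EPCAM, CD3D, COL1A1, COL1A2 and LYZ passed it too. EPCAM had 322 to 522 counts per library, beside 199 to 335 for KLF1. Passing the filter therefore does not by itself bear out the K562 label. Across 9202 tested genes, edgeR called 26.9% at an adjusted p under 0.05, 12.9% higher and 13.9% lower in sgN6AMT1. This split was 1191 higher and 1282 lower, 1560 and 976 with total counts in place of trimmed-mean (TMM) factors, and 1042 and 1631 with CDS length and GC trends removed.

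The glycophorin genes GYPB and GYPE lie on the minus strand of chromosome 4 and are near copies, so their coding sequences are shown to make clear where a footprint can be told apart. GYPB (ENST00000502664.5) spans chr4:143996104-144019380 (GRCh38), where 5 exons hold 276 coding bases, and GYPE (ENST00000437468.2) spans chr4:143875313-143905563 with 4 exons and 237 coding bases. Capitals mark the base at position 15 of each 28-base window that occurs in no other listed transcript, and the first and last bases of a CDS cannot hold such a centre.
GYPB: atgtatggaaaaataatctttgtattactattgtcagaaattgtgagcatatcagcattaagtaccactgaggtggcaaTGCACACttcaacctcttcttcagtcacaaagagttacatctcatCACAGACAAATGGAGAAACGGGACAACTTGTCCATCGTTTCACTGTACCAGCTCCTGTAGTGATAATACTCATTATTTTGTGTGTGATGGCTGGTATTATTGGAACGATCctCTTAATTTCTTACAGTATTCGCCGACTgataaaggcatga
GYPE: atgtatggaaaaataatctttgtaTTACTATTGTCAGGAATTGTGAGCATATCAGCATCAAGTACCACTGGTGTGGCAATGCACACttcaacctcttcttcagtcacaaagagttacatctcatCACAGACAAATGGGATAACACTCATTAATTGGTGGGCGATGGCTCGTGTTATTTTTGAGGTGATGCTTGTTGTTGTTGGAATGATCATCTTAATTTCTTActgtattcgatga
Over 237 aligned bases the pair was identical at 86.5%, with 32 mismatches. Of the 249 windows of GYPB, 105 (42.2%) occurred in another listed transcript, and 48 of these (19.3% of its windows) in GYPE. Of the 210 windows of GYPE, 48 (22.9%) were shared, all of them with GYPB. With 34-base windows the shares were 37.4% for GYPB and 17.6% for GYPE. The start of both genes, for a longer stretch in GYPB, and a block in the middle of both therefore hold footprints whose gene of origin is uncertain. The other members were almost free of such windows. GYPC and ANK1 shared none, EPB41 shared 1 of 2568 with EPB41L2, SPTB shared 5 of 6960 with another listed transcript and SLC4A1 shared 5 of 2709 with SLC4A2.

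**Figure D1:**
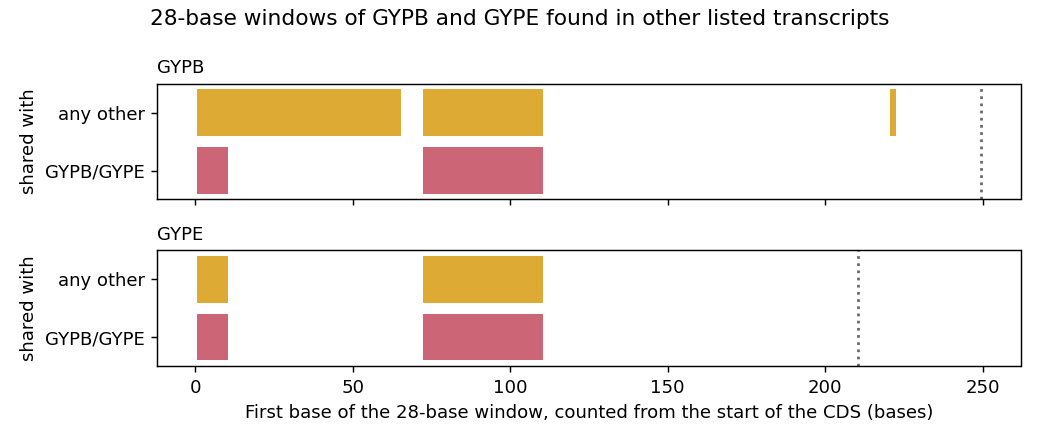
Position of shared 28-base windows along the CDS of GYPB and GYPE (x axis: first base of the window, in bases from the start of the CDS; dotted line: last window). The lower row of each panel marks the 48 windows that the pair shares, and the upper row marks windows found in any other listed transcript, 105 in GYPB and 48 in GYPE.

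The depletion moved members of the membrane skeleton in both directions. Footprints on EPB41 and GYPC, the partners of the junctional complex, rose to 1.32-fold and 1.56-fold, while those on ANK1 and SPTB, ankyrin and beta spectrin, fell to 0.833-fold and 0.755-fold. SLC4A1, EPB42, GYPB and GYPE did not pass the test. All 8 members had enough counts to be tested, 4 of them passed, and for the same 4 the libraries of sgCtrl and sgN6AMT1 were fully separate. Across all tested genes 26.9% passed and 37.5% did not overlap, 12.9% were higher and 13.9% lower, against 2 higher and 2 lower among the members. The median log2 fold change of the members was 0.11 and that of all tested genes 0.0063. Levels are given as CPM, footprints scaled to a fixed library total with TMM factors. As a share of total counts without TMM factors, the members together took 0.0929% ± 0.0047 in the controls and 0.101% ± 0.0017 after depletion (SD, n = 3 each). With TMM-scaled totals the shares were 0.0951% and 0.100%, and the groups overlapped. A change in footprints can come from mRNA amount or from its translation, and in bulk samples fewer cells of a type and less RNA per cell cannot be told apart.

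**Figure D2:**
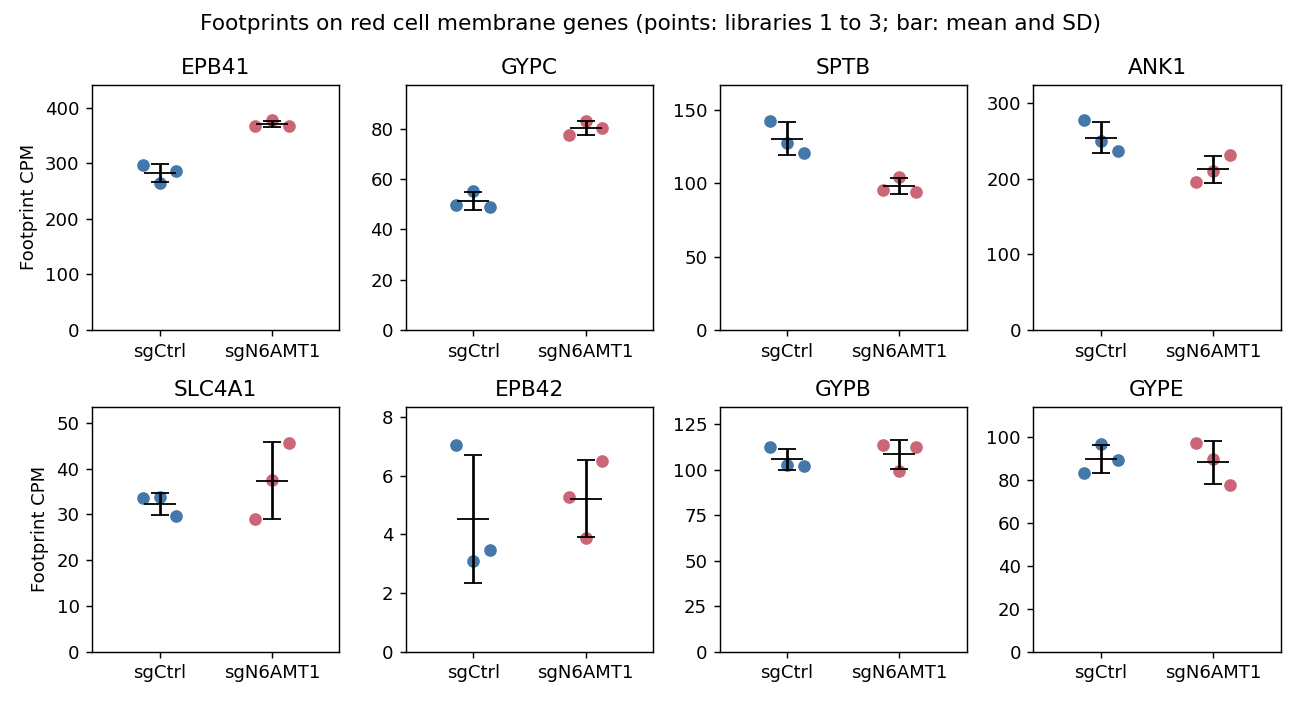
Footprints in TMM-scaled CPM (y axis from 0) of the 8 members in each library, with the mean and SD of each group (n = 3). The sgN6AMT1 points lie above all sgCtrl points for EPB41 and GYPC, below them for SPTB and ANK1, and overlap them for the other members.

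EPB41 encodes the skeletal protein that strengthens the binding of spectrin to actin and links this node to glycophorin C. It was the member with the most footprints, with 580 to 875 counts per library, on a transcript (ENST00000343067.8) of 21 exons at chr1:28914569-29120041 with a CDS of 2595 bases. CPM values were 297, 265 and 286 in sgCtrl, against 367, 378 and 368 after N6AMT1 depletion. Every sgN6AMT1 value lay above every sgCtrl value, and the sgN6AMT1 values were the tighter group. EPB41 rose from a mean of 283 ± 15.9 to one of 371 ± 6.13 CPM (SD, n = 3 each). The log2 fold change was 0.40 with an SE of 0.060 (edgeR quasi-likelihood test, Benjamini-Hochberg adjusted p 7.15e-08). Its log2 fold change was above that of 86.7% of all tested genes.

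GYPC encodes glycophorin C, the transmembrane protein that fixes the EPB41 protein to the bilayer and carries the Gerbich blood group antigens. Its transcript (ENST00000259254.8) has 4 exons at chr2:126656158-126696667 and a CDS of 387 bases. It had 49.7, 55.2 and 48.8 CPM in sgCtrl and 77.6, 82.9 and 80.3 CPM in sgN6AMT1. The groups were well apart, and the gap between them was larger than the range within either. GYPC rose from a mean of 51.2 ± 3.43 to one of 80.3 ± 2.68 CPM (SD, n = 3 each). Its log2 fold change of 0.64, with an SE of 0.11, was the largest among the members that passed (edgeR, adjusted p 2.49e-06). Only 9.15% of all tested genes had a larger absolute log2 fold change. Unlike GYPB and GYPE, GYPC is no copy of the chromosome 4 glycophorin genes, and it shared no window with any listed transcript.

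SPTB encodes beta spectrin, a chain of the spectrin tetramer that holds the sites for ankyrin and actin. The listed transcript (ENST00000389722.7) has 35 exons at chr14:64746284-64823148 and the longest CDS of the members, 6987 bases. It had 143, 127 and 121 CPM in sgCtrl and 95.6, 104 and 93.9 CPM in sgN6AMT1. All depleted libraries lay below all controls. SPTB fell from a mean of 130.2 ± 11.2 to one of 97.9 ± 5.48 CPM (SD, n = 3 each). The log2 fold change was -0.41 with an SE of 0.089 (edgeR, adjusted p 0.000169). Its log2 fold change was above that of only 9.12% of all tested genes.

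ANK1 encodes the erythroid ankyrin, the adaptor between beta spectrin and band 3. Its transcript (ENST00000265709.12) has 43 exons at chr8:41653225-41896741 and a CDS of 5694 bases. It had 277, 249 and 236 CPM in sgCtrl and 196, 210 and 231 CPM in sgN6AMT1. The highest sgN6AMT1 value lay just under the lowest sgCtrl value, so the groups were closer than for the other called members. ANK1 fell from a mean of 254 ± 21.1 to one of 212 ± 17.5 CPM (SD, n = 3 each). The log2 fold change was -0.26 with an SE of 0.068 (edgeR, adjusted p 0.00154). A larger absolute log2 fold change was seen in 39.8% of all tested genes.

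SLC4A1 encodes band 3, the chloride-bicarbonate exchanger to which ankyrin binds. Its transcript (ENST00000262418.10) has 20 exons at chr17:44248390-44268135 and a CDS of 2736 bases. It had 33.7, 33.8 and 29.6 CPM in sgCtrl and 28.9, 37.6 and 45.6 CPM in sgN6AMT1. The sgN6AMT1 libraries ran from below to above all sgCtrl libraries, so the groups overlapped. The log2 fold change was 0.18 with a 95% interval of -0.10 to 0.47 (edgeR adjusted p 0.377), which leaves room for a moderate rise and a small fall.

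EPB42 encodes a membrane protein that binds band 3 and ankyrin and is related to the transglutaminases without having their activity. Few footprints fell on it, 14, 9 and 7 in the controls against 12, 9 and 12 after depletion. These counts overlapped, and only 1.86% of tested genes had fewer CPM. The log2 fold change was 0.24 with a 95% interval of -0.51 to 0.99 (edgeR adjusted p 0.696), so no difference was detectable at this depth. Its listed transcript (ENST00000300215.7) was not matched in GENCODE release 44, and the gene of that name lies on chromosome 15 at 43197227 to 43221018.

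GYPB encodes glycophorin B, the carrier of the S and s antigens, and GYPE encodes glycophorin E. GYPB had 113, 103 and 102 CPM in sgCtrl and 114, 99.4 and 112 CPM in sgN6AMT1. GYPE had 83.4, 96.5 and 89.2 CPM in sgCtrl and 97.3, 89.9 and 77.6 CPM in sgN6AMT1. For both genes the values of the groups were intermixed. The log2 fold change of GYPB was 0.036 (95% interval -0.14 to 0.22, edgeR adjusted p 0.811) and that of GYPE was -0.024 (95% interval -0.22 to 0.17, edgeR adjusted p 0.891). Because the pair can share reads, their counts were also added, which gave 390, 578 and 388 footprints in the controls against 481, 438 and 350 after depletion. The summed log2 fold change was 0.0088 with a 95% interval of -0.13 to 0.15 (edgeR adjusted p 0.949), narrower than either alone. The ratio of GYPE to GYPB per base of CDS was 0.992 ± 0.118 in sgCtrl and 0.952 ± 0.131 in sgN6AMT1 (SD, n = 3 each), with overlap.

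**Figure D3:**
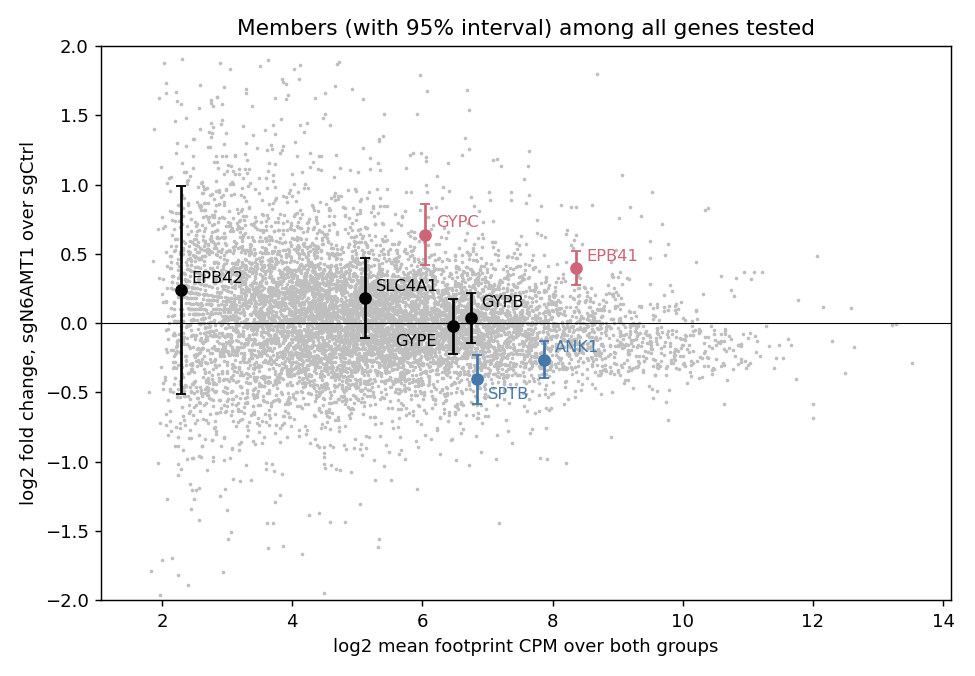
Log2 fold change (sgN6AMT1 over sgCtrl, y axis) against log2 mean footprint CPM (x axis) for the members, with 95% intervals, and for all tested genes (grey points, of which 40 lie beyond the axis limit of 2). EPB41 and GYPC stand above 0, SPTB and ANK1 below it, and the intervals of SLC4A1, EPB42, GYPB and GYPE cross 0.

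Set against SPTB and ANK1 within a library, EPB41 was higher in sgN6AMT1. Per base of CDS, EPB41 had 5.60, 5.62 and 6.37 times the footprints of SPTB in sgCtrl, against 10.35, 9.78 and 10.5 times in sgN6AMT1. The ratio of EPB41 to ANK1 was 2.35, 2.34 and 2.66 in sgCtrl and 4.11, 3.96 and 3.50 in sgN6AMT1. Neither ratio depends on how the libraries were scaled. The CPM values of EPB41, SPTB and ANK1 were already fully separate, EPB41 upward and the others downward. Neither ratio could therefore overlap between the groups, and their separation is no further result. The ratio of SPTB to ANK1 was 0.418 ± 0.0015 in sgCtrl and 0.378 ± 0.040 in sgN6AMT1 (SD, n = 3 each). It did not overlap between the groups either, with 0.397, 0.405 and 0.332 in the sgN6AMT1 libraries, the last of them the farthest from the controls. The ratio of GYPC to EPB41 per base of CDS was 1.22 ± 0.150 in sgCtrl and 1.45 ± 0.030 in sgN6AMT1 (SD, n = 3 each). These groups were also close, with 1.39 the highest value in sgCtrl and 1.42 the lowest in sgN6AMT1. These ratios were chosen with the values of the members known, and how often ratios of other genes separate was not tested.

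The members covered a wide range of footprint density, given as CPM per kilobase of CDS so that genes of unlike length can be compared. In sgCtrl the order was GYPB at 383 ± 21.2, GYPE at 379 ± 27.8, GYPC at 132 ± 8.87, EPB41 at 109 ± 6.14, ANK1 at 44.6 ± 3.70, SPTB at 18.6 ± 1.61 and SLC4A1 at 11.8 ± 0.874 CPM per kb (SD, n = 3 each). GYPB and GYPE did not differ beyond their spread, and each of the other neighbours did. The median density of 8607 tested genes with a CDS was 24.3 CPM per kb, so SPTB and SLC4A1 lay under the typical gene and the glycophorins far above it. In sgN6AMT1 the order was the same, with GYPB at 393 ± 28.5, GYPE at 372 ± 41.9, GYPC at 207 ± 6.94, EPB41 at 143 ± 2.36, ANK1 at 37.2 ± 3.08, SPTB at 14.01 ± 0.784 and SLC4A1 at 13.7 ± 3.05 CPM per kb (SD, n = 3 each). There the gap between SPTB and SLC4A1 was within their spread, while the step from GYPC to EPB41 widened. Each density divides by the CDS of the 1 listed transcript. Whether footprints on exons of other isoforms were counted is not stated, so a density can be too high or too low for a gene with several isoforms.

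**Figure D4:**
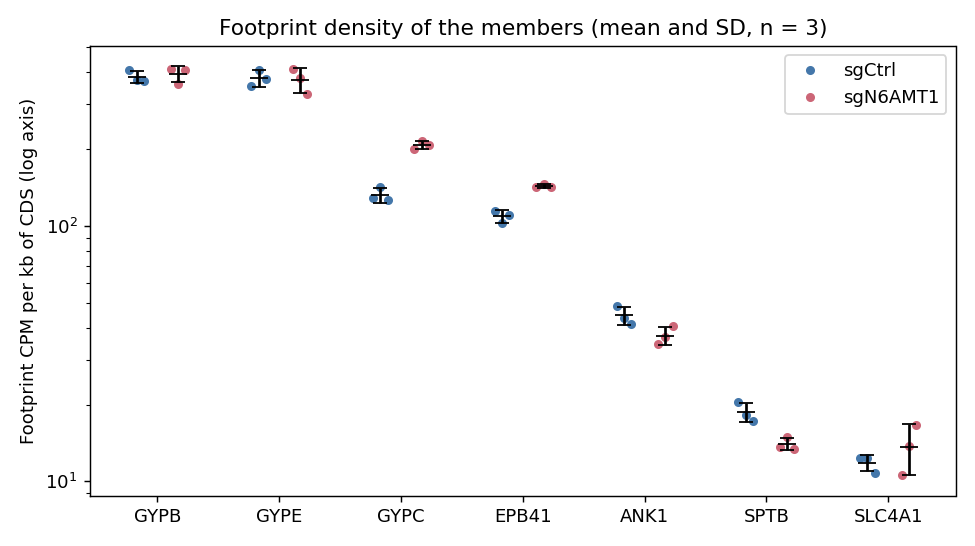
Footprint density (CPM per kb of CDS, log axis) of the 7 members with a matched CDS in each library, with mean and SD (n = 3 per group). Densities run from about 383 CPM per kb for GYPB to 11.8 for SLC4A1 in sgCtrl.

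The stop codon of each member with a matched transcript is given as a description. The last 12 coding bases, the stop codon in capitals and the next 6 bases are shown for 6 of the members.
EPB41: attgctgatgagTGAgctcag
GYPC: gagtactttattTGAgggaca
SPTB: cccaaaaagaagTAGcaggtg
SLC4A1: gccatgcctgtgTGAggggcg
GYPB: ctgataaaggcaTGAggatgt
GYPE: tactgtattcgaTGActgata
TGA was the stop codon of 6 of the 7 matched members, ANK1 among them, and SPTB ended in TAG. Of 8589 tested genes with a complete CDS, 49.1% ended in TGA, 29.7% in TAA and 21.2% in TAG. Of the members that passed, EPB41 and GYPC, which rose, and ANK1, which fell, ended in TGA, and SPTB, which fell, in TAG. Over all genes the median log2 fold change was 0.0086 for TGA, -0.0052 for TAA and 0.028 for TAG. Genes ending in TGA were higher in 12.3% and lower in 12.5% of cases, those ending in TAG in 14.1% and 13.4%, and those ending in TAA in 13.2% and 16.3%.

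The other proteins of the same complexes were examined as a list of 26 genes of the ankyrin complex, the junctional complex and the red cell bilayer, all of which were tested. By edgeR's test 7 were higher and 6 lower, with a median log2 fold change of 0.017, beside 12.9% higher and 13.9% lower over all genes. ADD2, which encodes beta adducin, and TMOD1, which caps the actin protofilament, had log2 fold changes of -0.95 and -0.82 (edgeR adjusted p 1.81e-09 and 5.72e-08). ADD1, the alpha adducin that pairs with ADD2, and TMOD3, another tropomodulin, were higher, with log2 fold changes of 0.30 and 0.36 (edgeR adjusted p 0.00254 and 0.000769). PIEZO1, a mechanosensitive channel, fell by 0.67 on the log2 scale (edgeR adjusted p 3.43e-10). KEL, the Kell blood group protein, and FLOT1, flotillin of membrane rafts, rose by log2 fold changes of 0.81 and 0.65 (edgeR adjusted p 4.64e-08 and 2.26e-08). RHAG, the Rh-associated glycoprotein of the band 3 complex, was at 1387 ± 37.0 and 1294 ± 65.4 CPM (SD, n = 3 each) and did not pass (log2 fold change -0.10, SE 0.046, edgeR adjusted p 0.0990).

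Several of these proteins have a relative outside the red cell, and the members were set beside theirs, in pairs chosen with the values known. SPTB fell while SPTBN1, the beta spectrin of other tissues, had a log2 fold change of 0.14 (95% interval -0.065 to 0.34) that did not pass. EPB41 rose while EPB41L2 had a log2 fold change of -0.045 (95% interval -0.28 to 0.19) that did not pass. ANK1 and ANK3 both fell, by 0.26 and 0.68 on the log2 scale. SLC4A1 did not pass, whereas SLC4A2, the anion exchanger of most other cells, fell by 0.98 on the log2 scale (edgeR adjusted p 1.16e-17). Among 29 listed relatives of the members' families, 9 were tested, and beside 12.9% higher and 13.9% lower over all tested genes, 1 was higher (SPTAN1, at a log2 fold change of 1.11) and 3 were lower (SLC4A2, ANK3 and TGM2, a transglutaminase related to EPB42, at -0.67).

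**Figure D5:**
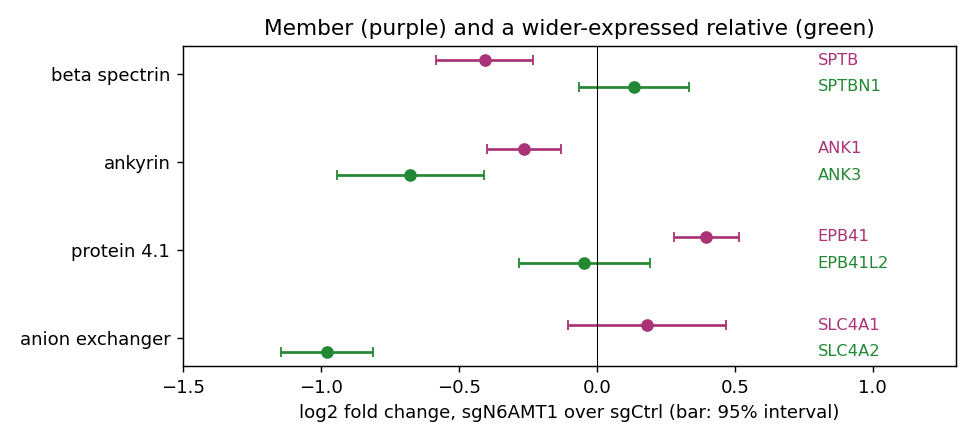
Log2 fold change (sgN6AMT1 over sgCtrl, x axis, with 95% interval) of SPTB, ANK1, EPB41 and SLC4A1 (purple) and of a relative expressed more widely (green), 1 family per row. Both intervals lie below 0 for ankyrin, and in the other families the interval of 1 gene crosses 0.

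Genes that accompany the red cell membrane in erythroid cells were counted from further lists, each to be read against the 12.9% higher and 13.9% lower over all tested genes. Of 22 listed blood group carriers 17 were tested, 5 were higher and 2 lower, with SEMA7A, which carries the John Milton Hagen antigen, rising from 13.0 ± 2.30 to 61.5 ± 8.70 CPM (SD, n = 3 each). BSG, basigin, rose by a log2 fold change of 0.59 and EMP3 fell by 0.21 on the log2 scale. Of 16 erythroid regulators 15 were tested, 2 were higher and 6 lower. GATA1 and KLF1, transcription factors known to drive the genes of the membrane skeleton, had log2 fold changes of -0.29 and -0.37 (edgeR adjusted p 0.000135 and 0.000940). LMO2, a cofactor of GATA1, fell by 1.44 on the log2 scale (edgeR adjusted p 1.39e-11), and SPI1, a myeloid factor, rose by 1.44 (edgeR adjusted p 6.13e-09). Of 22 tested globin and heme genes 4 were higher and 8 lower. Of 7 tested megakaryocyte genes 5 were lower and 0 higher, their list summed to between 362 and 405 CPM in sgCtrl and between 247 and 274 CPM in sgN6AMT1, and 6 of the 16 listed, among them PF4 and GP1BA, were at 0 in every library. Of 17 markers of other blood, epithelial and stromal cells in the table, 5 were tested, EPCAM, CD3D, COL1A1, COL1A2 and LYZ. Of these 1, LYZ, was higher (log2 fold change 0.90, edgeR adjusted p 2.46e-11), and the others did not pass. CD8A, MS4A1, CD14, ELANE and KRT5 were at 0 in every library, and the summed level of the list ran from 283 to 324 CPM in sgCtrl and from 345 to 366 CPM in sgN6AMT1. The part of these shifts in the changes of the membrane genes was not tested.

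The tested genes whose values were nearest to those of EPB41 across the 6 libraries, by the root mean square difference of log2 CPM centred on the sgCtrl mean, were ARPC1B at 0.028, DCTN4 at 0.036 and PRKAB1 at 0.037. Their log2 fold changes were 0.40, 0.39 and 0.39. The sgN6AMT1 values entered this ranking, so log2 fold changes close to that of EPB41 follow from the selection and are no further result.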

How the data were processed

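Footprints of 6 K562 libraries were analysed from the count table deposited by the authors, whose values are raw footprint counts per transcript. Per the paper's methods, the authors trimmed reads with cutadapt, removed rRNA and tRNA reads after mapping to GRCh38 with HISAT2, mapped the rest with bowtie2 to 1 canonical transcript per gene and summed P-sites over each CDS; a count by overlap with a gene annotation was also made, and which of these the table holds is not stated. By default bowtie2 reports a single place for a read that fits several equally well. Versions are not given in the sources used here. No molecular identifiers are described, so PCR copies are counted as separate footprints, and no counting interval is given.

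Genes were tested here with edgeR 4.0.16 (R 4.3.3): filterByExpr with a minimum of 10 counts kept 9202 genes, TMM factors scaled the libraries, and a robust quasi-likelihood F test compared the groups without covariates, 2-sided, with Benjamini-Hochberg adjustment over all genes and a threshold of 0.05. CPM are scaled to TMM-adjusted totals, and the SE was derived from the F statistic. DESeq2 1.42.0 and limma 3.58.1 served as alternatives. On simulated data for this comparison (9082 genes) edgeR recovered 45.9% of changes of 0.5 and 88.0% of changes of 1 on the log2 scale, and 8.28% of its calls were false. Transcripts were matched without version to GENCODE release 44 on GRCh38 (91.5% of 19330, 7 of the 8 members), the authors' build with another annotation. Windows were compared as exact matches on the sense strand of listed transcripts.

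The members, lists and tests were chosen with earlier results of these data known. Named genes were the members, RHAG, GATA1, KLF1 and N6AMT1, up to 6 called genes with the smallest p and at least 10 CPM from each list, and the 3 nearest to EPB41; some items the rule takes in are not reported here, and ADD1, TMOD3, SPTBN1 and EPB41L2 were added after their values were seen. Alternatives were other factors (RLE, upper quartile, total counts), DESeq2 and limma-voom, no filter or a minimum mean of 50 counts, the replicate number as a block, removal of CDS length and GC trends, thinning to the smallest total and leaving out each library.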

Additional observations from a re-analysis of the deposited data

How the results depend on the processing

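EPB41, GYPC, SPTB and ANK1 kept their direction and passed the threshold in each of the 16 alternatives run, and SLC4A1, EPB42, GYPB, GYPE and the sum of GYPB and GYPE passed in none of theirs. The removal of CDS length and GC trends left EPB42 and the sum uncorrected, because no CDS length was assigned to them. Log2 fold changes ran from 0.35 to 0.45 for EPB41, from 0.49 to 0.70 for GYPC, from -0.46 to -0.34 for SPTB and from -0.33 to -0.20 for ANK1, with the highest adjusted p, 0.0315, for ANK1. Labels share replicate numbers, but same-numbered libraries did not deviate together (r from -0.061 to 0.020), so the numbers were not taken to pair them, and with the replicate block 2 members were higher and 2 lower, as without it, among 1167 higher and 1223 lower genes. Counts over the other lists moved more. DESeq2 called 3 complex partners higher in place of 7 and 1 blood group carrier lower in place of 2, and over all genes 585 higher and 739 lower, but it was run on 13621 genes against 9202, with its own filter, so tool and filter changed together. With no filter 2 relatives were higher in place of 1. With a mean of at least 50 counts 0 relatives and 1 regulator were higher, in place of 1 and 2, and 1 megakaryocyte gene was lower in place of 5, since fewer genes were tested. With CDS length and GC trends removed 1 marker of other cells was lower in place of 0. Other counts moved as well. Across the alternatives complex partners ran from 3 to 9 higher, the most with total counts, and from 5 to 8 lower. Regulators ran from 5 to 8 lower, and megakaryocyte genes from 1 to 6 lower. Globin and heme genes ran from 4 to 6 higher and from 7 to 10 lower. At most 4 relatives were lower and 6 blood group carriers higher. Leaving out 1 library gave 1 to 2 relatives higher and 1 to 2 blood group carriers lower; without sgCtrl replicate 1, 2 or 3 or sgN6AMT1 replicate 1 there were 2 such relatives, and without sgCtrl replicate 2 there was 1 such carrier. By TMM-scaled totals the members took 0.0951% of counts in sgCtrl and 0.100% in sgN6AMT1, with overlap between the groups that total counts did not show. EPB42 had at most 14 counts in a library, and SLC4A1 ran from 0.031 to 0.34 on the log2 scale. The cause of these movements was not tested where none is given.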
